A study of Mus musculus with 12 samples.

Results

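The Slc30a genes encode the zinc exporters, and all 10 of them, Slc30a1 to Slc30a10, were taken from the 54838 genes of the count table by their Ensembl identifiers. The table holds RNA-seq of ileum from 12 female C57BL/6J mice, with no mutant allele or transgene, aged 8 to 14 weeks by the study's description of its animals. For 7 days they drank normal water or water with 25 mM ZnSO4, and were then injected i.p. with PBS or with 200 µg of the synthetic glucocorticoid dexamethasone (Dex), 2 h before sampling. This gave 4 groups of 3 biological replicates: water + PBS, water + Dex, ZnSO4 + PBS and ZnSO4 + Dex. The design asks how zinc in the drinking water, Dex, and both together act on gene expression in this tissue.

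Slc30a proteins move zinc out of the cytosol, either across the plasma membrane or into vesicles, the Golgi and secretory granules, and so act against the Slc39a importers. When zinc in the cell rises, the sensor Mtf1 binds metal response elements in DNA and raises transcription of the metallothioneins, which store zinc, and of Slc30a1, the exporter of the plasma membrane. In the ileum, enterocytes take up dietary zinc, and Paneth cells of the crypts load zinc into their granules through Slc30a2. Slc30a10 stands apart from the family, because it exports manganese.

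RefSeq windows from 250 bases before to 50 bases after the transcription start (GRCm38.p6) were matched by symbol for 9 members, with 10 windows in all. The core of the metal response element, searched as TGCACNC or TGCGCNC on both strands with overlaps allowed, lay in 6 of these 10 windows and in 25.7% of all 32851 windows of that length. Stretches of the windows are shown for Slc30a2, Slc30a10 and the classical target Slc30a1, with core matches in capitals. Below, Slc30a2 had the largest rise of the family with zinc and Slc30a10 the largest with Dex. The group means of Slc30a10 were lower with zinc. The Slc30a10 stretch covers chr1:185454598-185454847, the Slc30a1 stretch covers chr1:191906531-191906766 and the Slc30a2 stretch covers chr4:134343247-134343276, all on the + strand.
Slc30a2: gtcccGCGCGCAacttcgaGGGCGCAccga
Slc30a10: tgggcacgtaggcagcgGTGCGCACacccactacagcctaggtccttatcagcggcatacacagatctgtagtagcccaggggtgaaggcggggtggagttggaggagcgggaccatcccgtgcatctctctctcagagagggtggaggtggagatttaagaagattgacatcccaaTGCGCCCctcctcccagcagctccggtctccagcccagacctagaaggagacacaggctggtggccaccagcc
Slc30a1: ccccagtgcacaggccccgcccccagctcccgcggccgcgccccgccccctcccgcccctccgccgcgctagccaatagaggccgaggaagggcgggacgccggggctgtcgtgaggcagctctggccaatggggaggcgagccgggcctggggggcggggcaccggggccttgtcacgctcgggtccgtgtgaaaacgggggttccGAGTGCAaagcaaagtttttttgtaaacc
The Slc30a2 stretch runs from -219 to -190 of the RefSeq start and carries 2 matches, on the opposite strand. It lies inside the Slc30a2 gene as annotated by GENCODE, which begins further upstream, at chr4:134343181. In the Slc30a10 stretch an overlapping pair, 1 match on each strand, stands far upstream and a further match nearer to the start. The Slc30a1 window held a further match, at position 31 on the opposite strand, outside the stretch shown. The windows of Slc30a3, Slc30a4 (3 matches) and Slc30a5 also held core matches, whereas those of Slc30a6, Slc30a7 and Slc30a9 held none, nor did the second window of Slc30a3. The half-site of the glucocorticoid receptor element, AGAACA on either strand, was found in 3 of the 10 windows, those of Slc30a3, Slc30a5 and Slc30a6, and in 19% of all windows. None of these matches was tested for binding.

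Between 10760132 and 11827487 reads per library were counted on genes. Levels are given as normalised counts, i.e. counts scaled to the mean effective library size, and as RPKM (reads per kilobase of merged exons, scaled to library size) where genes are compared with each other. Of the 10 members, 8 passed the filter on low counts and were tested among 15938 genes, with a call at an adjusted p under 0.05 from edgeR's quasi-likelihood test. Enterocyte markers were abundant in all libraries, whereas markers of the exocrine pancreas summed to 4.56 to 7.31 CPM, the count relative to library size, with Cpa1 and Cel at 0 in all 12. The Dex-induced genes Fkbp5, Tsc22d3 and Per1 all rose in both comparisons of Dex with PBS, as the labels of the injections imply. One library stood apart: in ZnSO4 + Dex replicate 2 the 8 enterocyte markers summed to 7306 CPM, against 10273 to 16934 CPM in the other 11, and the 18 secreted and membrane zinc enzymes to 5926 CPM, against 11168 to 16101 CPM. The 4 ileal enterocyte markers summed to 5585 CPM in that library, and ZnSO4 + PBS replicate 3 had less, 5348 CPM. Nothing in the labels or the table names a batch. In whole ileum, fewer cells of a type cannot be told apart from less RNA per cell.

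In control mice (water + PBS), Slc30a1 and Slc30a4 were the leading family members, and in zinc-drinking mice Slc30a2 took the first place. In control mice Slc30a1 had the highest level per length, with 37.3 ± 3.21 RPKM (SD, n = 3), followed by Slc30a4, an exporter into intracellular vesicles, with 31.8 ± 1.80 RPKM, and neither overlapped with its lower neighbour. Slc30a5 (17.8 ± 1.14 RPKM) and Slc30a2 (15.3 ± 3.56 RPKM) came next, with overlapping libraries. Slc30a10, Slc30a6, Slc30a7 and Slc30a9 had mean levels between 5.81 and 8.03 RPKM, below all Slc30a2 libraries, and among these 4 genes Slc30a9 alone did not overlap with its neighbour above.

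Slc30a3, which fills synaptic vesicles with zinc in neurons, had 0 to 3 reads per library and Slc30a8, which does so in the insulin granules of pancreatic beta cells, had 0 reads in all 12 libraries. A count of 0 allows up to 3 reads, which equals 2.75 to 3.34 normalised counts depending on the library. This limit, like all such limits here, covers counting error only. The highest Slc30a3 counts, 1, 3 and 2 reads, were in ZnSO4 + Dex, and no fold is given at this depth. Markers of pancreatic islets summed to 0.845 to 1.82 CPM over all libraries, with Ins1 at 0, and those of enteric neurons to 27.4 to 45.7 CPM.

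In water + Dex mice Slc30a4 led with 38.3 ± 2.69 RPKM, ahead of Slc30a1 with 25.2 ± 2.68 RPKM, and the libraries of these genes did not overlap. In ZnSO4 + PBS mice Slc30a2, at 47.2 ± 8.59 RPKM, overlapped with Slc30a4, at 43.1 ± 2.19 RPKM. In ZnSO4 + Dex mice Slc30a2 reached 58.6 ± 10.3 RPKM, above Slc30a4 at 37.2 ± 8.23 RPKM with no overlap. Slc30a1 came next after Slc30a4 in both zinc groups.

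Summed over the family, the level was 130 ± 9.81 RPKM in water + PBS, 136 ± 2.82 RPKM in water + Dex, 164 ± 12.6 RPKM in ZnSO4 + PBS and 170 ± 34.6 RPKM in ZnSO4 + Dex. The lowest sum among the zinc-drinking mice, 131 RPKM, was that of ZnSO4 + Dex replicate 2, and it lay within the range of the water mice. Slc30a2 made up 11.7% ± 2.03 of the family sum in water + PBS, 14.5% ± 0.664 in water + Dex, 28.6% ± 3.28 in ZnSO4 + PBS and 34.7% ± 1.19 in ZnSO4 + Dex. This share was 9.99% to 15.2% in the 6 water libraries and 24.9% to 36.1% in the 6 zinc libraries, ZnSO4 + Dex replicate 2 included.

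**Figure D1:**
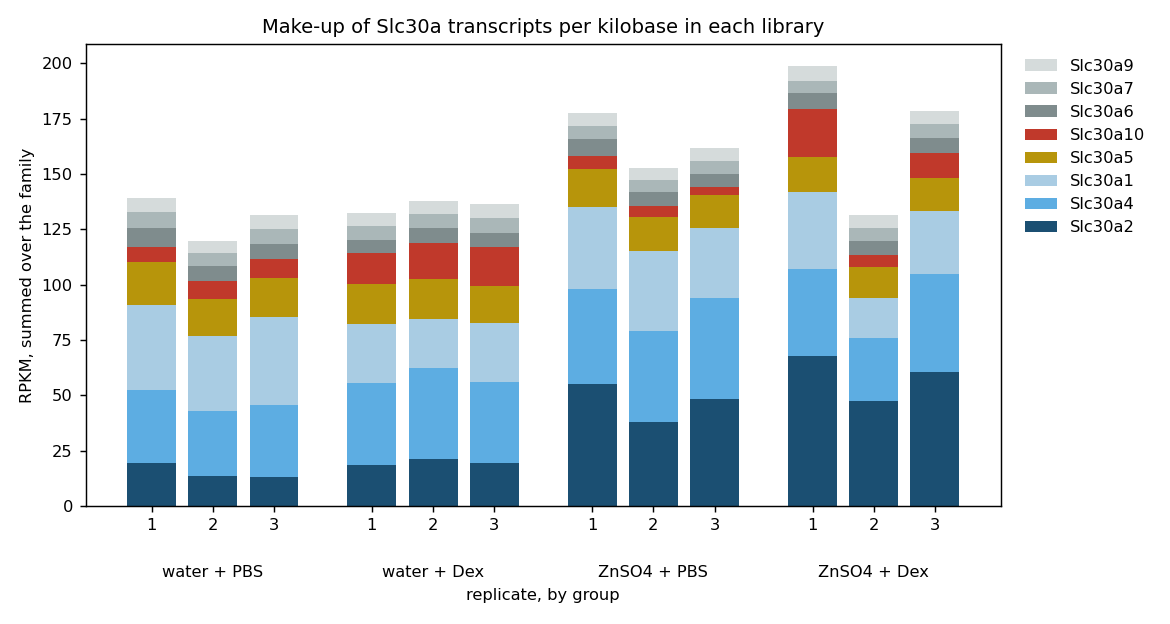
Stacked RPKM of the 8 detected Slc30a members (vertical axis) in each of the 12 libraries, by group (horizontal axis), without error bars since each bar is 1 mouse. The dark blue segment, Slc30a2, grows from 9.99% to 15.2% of the bar in water mice to 24.9% to 36.1% in zinc-drinking mice, and the red segment is Slc30a10.

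Zinc raised 1 member of the family, Slc30a2, both in PBS mice and in Dex mice. The Slc30a2 gene (ENSMUSG00000028836) lies at chr4:134343181-134354484 on the + strand, with 9 merged exons, none of which overlaps another annotated gene. Slc30a2 had 787, 542 and 532 normalised counts in the water + PBS libraries and 2235, 1543 and 1964 in the ZnSO4 + PBS libraries. All ZnSO4 + PBS libraries lay above all water + PBS libraries. The log2 fold change (LFC) was 1.63 (SE 0.18, edgeR adjusted p = 0.000898), a 3.08-fold rise.

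Under Dex, Slc30a2 had 749, 851 and 787 normalised counts without zinc and 2751, 1924 and 2458 with zinc, again with no overlap. The LFC of zinc in Dex mice was 1.58 (SE 0.18, edgeR adjusted p = 0.00111), a 2.99-fold rise, and thus close to that in PBS mice. The difference between both effects of zinc, which is the interaction with Dex, was -0.05 on the log2 scale, with a 95% interval from -0.60 to 0.51 that leaves room for a difference of either sign. Both calls held without each of the 12 libraries in turn, at LFCs of 1.50 to 1.85 in PBS mice and of 1.46 to 1.71 in Dex mice.

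Of the 8 tested members, 1 was called for zinc in PBS mice, where 4.66% of all tested genes were called, and 1 for zinc in Dex mice, where 4.37% were called. The median LFC of the 8 members was -0.12 in PBS mice and 0.01 in Dex mice, against -0.01 and 0.01 for all tested genes. Groups did not overlap for 4 of 8 members in PBS mice (25.3% of all tested genes) and for 3 of 8 in Dex mice (25.9% of all tested genes). In PBS mice these were Slc30a2 and Slc30a4, higher with zinc, and Slc30a7 and Slc30a10, lower with zinc. In Dex mice they were Slc30a2, higher, and Slc30a5 and Slc30a7, lower. The LFC of Slc30a10 with zinc was -0.72 in PBS mice (95% interval -1.54 to 0.10, edgeR adjusted p = 0.321). In Dex mice it was -0.31 (95% interval -1.11 to 0.48, edgeR adjusted p = 0.691).

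**Figure D2:**
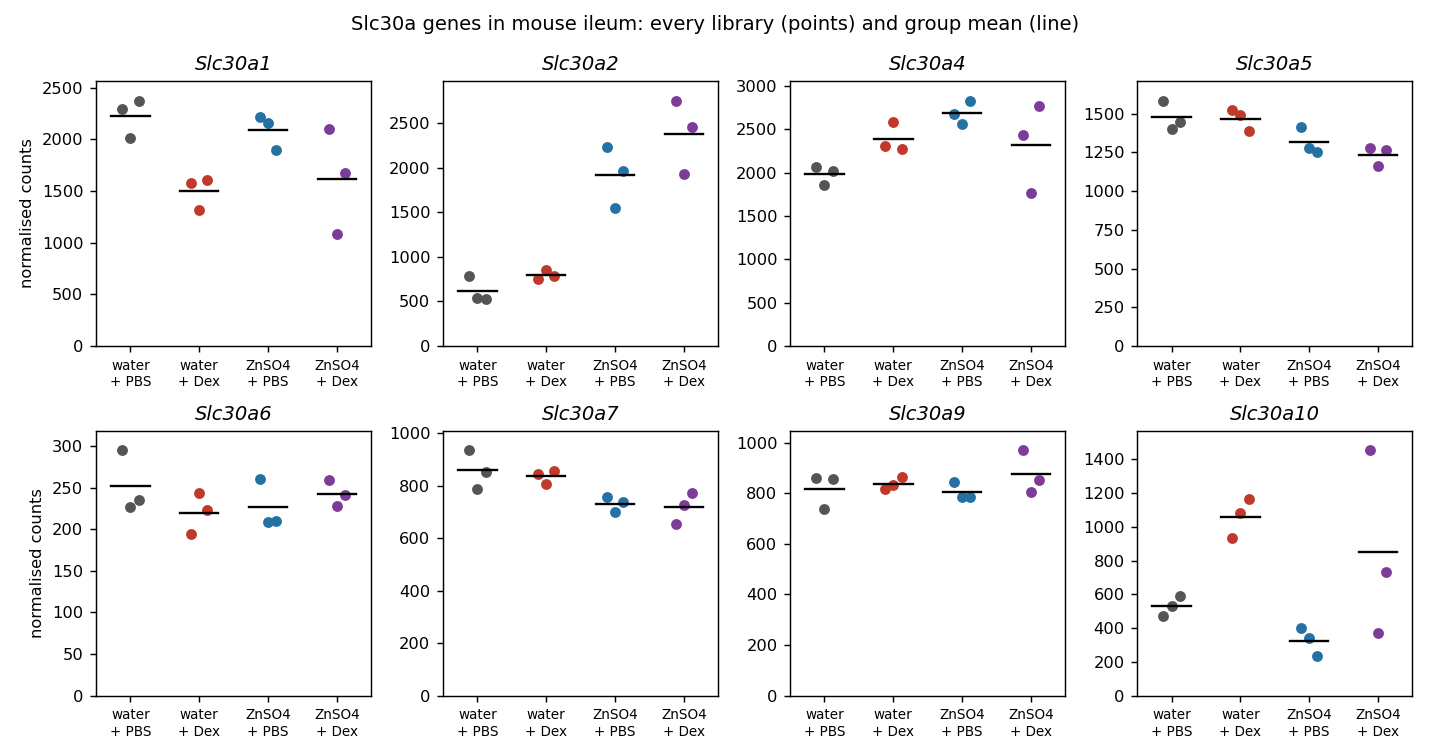
Normalised counts (vertical axes, each from 0) of the 8 tested Slc30a members in the 4 groups (horizontal axes), with a point for each mouse and a line at the group mean. The 6 zinc points of Slc30a2 lie between 1543 and 2751, above all 6 water points, and Slc30a10 ranges from 371 to 1454 in ZnSO4 + Dex.

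Slc30a1 is the exporter that the metal sensor is known to induce, yet it was nearly level between zinc and water mice. Slc30a1 (chr1:191906767-191913247, + strand, 2 merged exons) had 2297, 2012 and 2375 normalised counts in water + PBS and 2219, 2159.8 and 1894 in ZnSO4 + PBS. These libraries overlapped. The LFC was -0.09 with a 95% interval from -0.50 to 0.32, and in Dex mice it was 0.11, from -0.30 to 0.52. A change of Slc30a1 as large as that of Slc30a2 lies outside both intervals.

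Slc30a4 (chr2:122681233-122702663, - strand), which loads zinc into vesicles, had 2064, 1853 and 2024 normalised counts in water + PBS and 2675, 2558 and 2831 in ZnSO4 + PBS. The groups did not overlap, but the LFC of 0.44 (SE 0.13) missed the threshold over all genes (edgeR adjusted p = 0.0897). Without ZnSO4 + Dex replicate 2, a library outside this comparison, the edgeR adjusted p was 0.00963 at the same LFC of 0.44. That library enters through the shared filter, scaling factors, estimate of the spread and adjustment over all genes. The edgeR adjusted p ranged from 0.00963 to 0.251 over all 12 fits that each left out 1 library.

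In Dex mice the LFC of Slc30a4 with zinc was -0.04, with 2311, 2579 and 2270.3 normalised counts in water + Dex and 2436, 1760.1 and 2767 in ZnSO4 + Dex. The lowest of these was again ZnSO4 + Dex replicate 2. Slc30a4 had the largest interaction of the family in size, an LFC of -0.48 with a 95% interval from -0.90 to -0.06, which did not pass the test over all genes (edgeR adjusted p = 0.952). No member was called for the interaction, nor was any gene by edgeR (0% of all tested genes). An unadjusted p under 0.05 was found for 794 genes, 4.98% of those tested, and DESeq2 called 6 genes, none of them a member.

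Slc30a5, Slc30a6 and Slc30a7 serve the early secretory pathway, where Slc30a5 works in a pair with Slc30a6 and Slc30a7 works with itself, and load enzymes such as alkaline phosphatase with zinc. Slc30a5 (chr13:100802648-100833427, - strand) had 1585, 1403 and 1449 normalised counts in water + PBS, 1414, 1277 and 1255 in ZnSO4 + PBS, 1523, 1493 and 1391 in water + Dex and 1276, 1164 and 1264 in ZnSO4 + Dex. Slc30a7 (chr3:115938973-116007406, - strand) had 935, 788 and 852, then 757, 700.1 and 736, then 845, 807 and 857, then 655, 728 and 772 normalised counts in the same order of groups. For both genes each zinc group had a lower mean than its water group, by LFCs of -0.17 and -0.25 for Slc30a5 and -0.23 and -0.22 for Slc30a7, none of which passed the test in its own comparison.

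When the effect of zinc was averaged over PBS and Dex mice, a contrast of 6 libraries against 6 that was added after the data had been seen, Slc30a5 fell by 0.21 (SE 0.05, edgeR adjusted p = 0.0249) and Slc30a7 fell by 0.23 (SE 0.06, edgeR adjusted p = 0.0253) on the log2 scale. Slc30a2 rose by 1.60 (SE 0.13, edgeR adjusted p = 2.8e-05), so that 3 of 8 members were called, against 12.8% of all tested genes. The falls of Slc30a5 and Slc30a7 were lost in 5 and 6 of the 12 fits that each left out 1 library, with edgeR adjusted p up to 0.0789 and 0.0735, and the rise of Slc30a2 in none. For Slc30a7, 16% of the exon bases are also covered by genes on the opposite strand, and reads of such partners cannot be told apart if reads were counted without regard to strand.

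For Slc30a6, the partner of Slc30a5, group means lay between 219.9 and 252 normalised counts, the LFC with zinc was -0.16 in PBS mice and 0.14 in Dex mice, and the groups overlapped in both. Differences between these genes were not tested. Slc30a9, a zinc transporter linked to mitochondria, had group means between 805 and 875 normalised counts and LFCs of -0.02 and 0.06 with zinc. The 95% intervals of these changes reached from -0.45 to 0.44 for Slc30a6 and from -0.21 to 0.25 for Slc30a9 over both comparisons, and neither gene was called in any comparison.

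**Figure D3:**
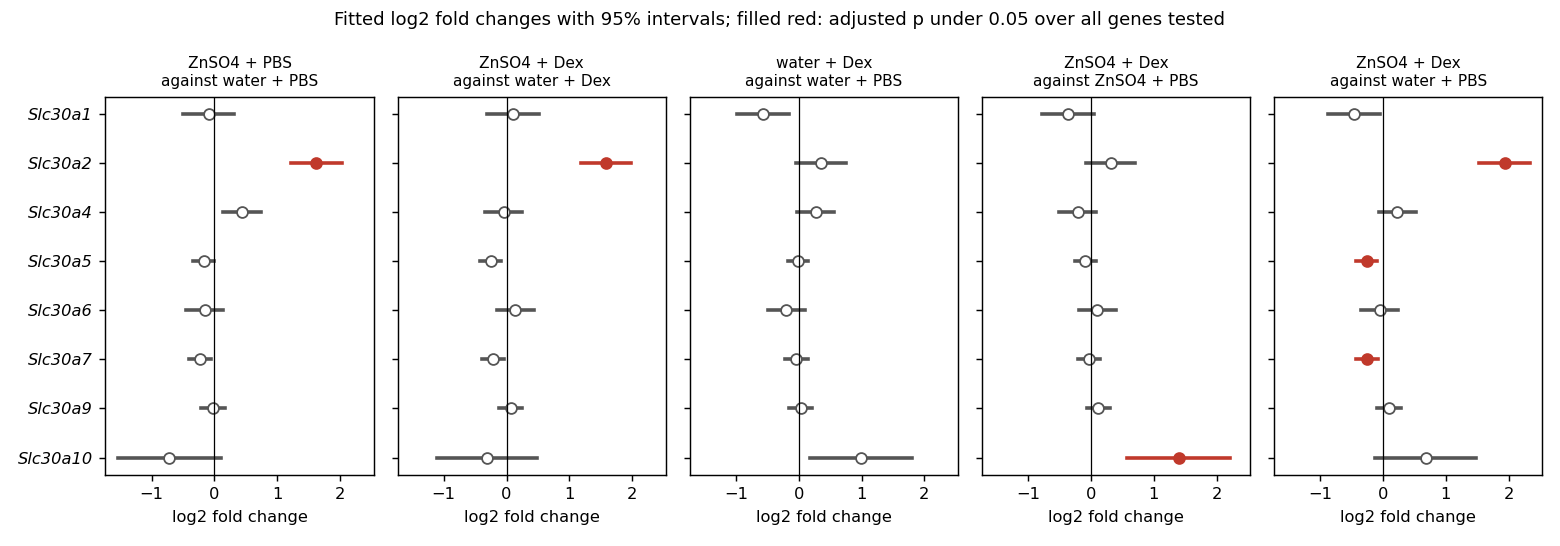
Fitted log2 fold changes (horizontal axes) with 95% intervals of the 8 tested members (vertical axis) in 5 comparisons of 3 libraries with 3, where filled red points passed an adjusted p of 0.05 over all tested genes. Slc30a2 is red at 1.63 for zinc in PBS mice and at 1.58 for zinc in Dex mice. Slc30a10 is red at 1.40 for Dex in zinc-drinking mice. In the comparison at the right, of both treatments with controls, Slc30a2 is red at 1.94 and Slc30a5 and Slc30a7 are red at -0.26.

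Dex in water mice called 0 of the 8 tested members by edgeR, whereas 9.93% of all tested genes were called. An unadjusted p under 0.05 was found for 2 members, Slc30a1 and Slc30a10, and for 3623 of all 15938 tested genes. The median LFC of the members was 0.01, against -0.01 for all tested genes. The groups did not overlap for 3 of 8 members (29.7% of all tested genes), with Slc30a4 and Slc30a10 higher and Slc30a1 lower after Dex. Slc30a1 had 1579, 1319 and 1610.0 normalised counts in water + Dex, all below the water + PBS libraries given above. Its LFC was -0.57 (SE 0.19, edgeR adjusted p = 0.0869).

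Slc30a10 (ENSMUSG00000026614, chr1:185454848-185468762, + strand, 4 merged exons) had 474, 534 and 592 normalised counts in water + PBS and 934, 1081 and 1163 in water + Dex. All water + Dex libraries were above all water + PBS libraries, and the means differed 1.99-fold, with an LFC of 0.99 (SE 0.37, 95% interval 0.18 to 1.80, edgeR adjusted p = 0.128). With only both groups in the fit, Slc30a10 (edgeR adjusted p = 0.00184) and Slc30a1 (edgeR adjusted p = 0.0123) passed the threshold at the same LFCs, and both also passed without ZnSO4 + Dex replicate 1 or replicate 2. Without replicate 2, Slc30a4 passed as well (edgeR adjusted p = 0.0494, against 0.267 with all libraries). The adjusted p over the 12 fits that each left out 1 library ranged from 0.0223 to 0.288 for Slc30a10 and from 0.00733 to 0.252 for Slc30a1.

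In zinc-drinking mice Dex raised Slc30a10, the only call among 8 members, where 13.7% of all tested genes were called. Slc30a10 had 399, 339.5 and 233 normalised counts in ZnSO4 + PBS, the lowest group mean of the 4, and 1454, 371 and 736 in ZnSO4 + Dex. The ZnSO4 + Dex libraries were wide apart and replicate 2, at 371, lay within the ZnSO4 + PBS range. The LFC was 1.40 (SE 0.38, edgeR adjusted p = 0.0293), a 2.63-fold rise. For 0 of the 8 members did the groups not overlap (29.1% of all tested genes), and the median LFC was 0.04, against 0.01 for all tested genes.

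This call rested on single libraries. Without any 1 of the 3 ZnSO4 + PBS libraries or without ZnSO4 + Dex replicate 1, the edgeR adjusted p was 0.0516 to 0.114, and without the latter the LFC was 0.77. Without ZnSO4 + Dex replicate 2, the library with the lowest sum of the 8 enterocyte markers, the LFC was 1.76 (edgeR adjusted p = 0.00147). The part of that library's cell content in the Slc30a10 values was not tested.

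Averaged over water and zinc mice, a contrast also added after the data had been seen, Slc30a10 rose after Dex by an LFC of 1.19 (SE 0.26, edgeR adjusted p = 0.0067) and Slc30a1 fell by 0.47 (SE 0.13, edgeR adjusted p = 0.0262) on the log2 scale. These were 2 of 8 members, against 21.5% of all tested genes, a share at which about 2 of 8 would be called. The rise of Slc30a10 held without each of the 12 libraries, at an LFC of 0.88 to 1.37, whereas the fall of Slc30a1 was lost in 5 of these fits. The LFC of Slc30a2 with Dex was 0.36 in water mice, 0.31 in zinc mice and 0.34 averaged (edgeR adjusted p = 0.0836), and it passed the test in no case. Without water + PBS replicate 1 or without ZnSO4 + Dex replicate 2 the averaged effect passed, with edgeR adjusted p of 0.0233 and 0.0379, and over all 12 such fits the adjusted p ranged up to 0.188.

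Of the exon bases of Slc30a10, 9.13% are shared with Gm2061 on the opposite strand, a gene of unknown function whose group means moved alike, from 221 normalised counts in water + PBS to 509.6 in water + Dex and from 169.5 in ZnSO4 + PBS to 344 in ZnSO4 + Dex. The libraries were stranded, but the strand setting of the counting is not given in the sources used here. For Slc30a1 the shared portion on the opposite strand was 8.92% and for Slc30a4 2.37%. No member shared exon bases with a gene on its own strand.

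In mice with both treatments, compared with control mice, 3 members were called. Slc30a2 rose 3.83-fold (LFC 1.94, SE 0.18, edgeR adjusted p = 3e-05), while Slc30a5 fell by 0.26 (SE 0.08, edgeR adjusted p = 0.0281) and Slc30a7 fell by 0.26 (SE 0.08, edgeR adjusted p = 0.0408) on the log2 scale. All ZnSO4 + Dex libraries of Slc30a5 and Slc30a7 lay below all water + PBS libraries. The 3 calls among 8 members stand against 23.3% of all tested genes, at which about 2 of 8 would be called. Slc30a5 lost its call in 4 and Slc30a7 in 9 of the 12 fits that each left out 1 library, with edgeR adjusted p up to 0.108 and 0.146, and Slc30a2 kept its call in all 12. With all libraries Slc30a1, Slc30a4 and Slc30a10 were not called, at LFCs of -0.46, 0.23 and 0.68 (edgeR adjusted p = 0.102, 0.247 and 0.21). Slc30a1 was called without ZnSO4 + Dex replicate 1 (LFC -0.69), and Slc30a4 and Slc30a10 without ZnSO4 + Dex replicate 2 (LFCs 0.39 and 1.04). Other ZnSO4 + Dex libraries moved them the other way. The LFC was -0.24 for Slc30a1 without replicate 2, 0.08 for Slc30a4 without replicate 3 and 0.05 for Slc30a10 without replicate 1.

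The genes most like each called member across the 12 libraries were ranked by Pearson r on log2 CPM, as a description, since all points share the 4 treatment groups. Slc30a2 was most like the metallothioneins Mt1 (r = 0.978) and Mt2 (r = 0.976), which bind and store zinc, followed by Ext2, Eci1 and Asb7, and least like Tap2 and Nlrc5 (r = -0.946 and -0.945), which belong to antigen presentation by MHC class I. Mt1 had 490.3 to 850.2 normalised counts in water + PBS, 1093 to 1376 in water + Dex, 11971 to 22541 in ZnSO4 + PBS and 23484 to 27940.0 in ZnSO4 + Dex. In ZnSO4 + PBS the lowest library of Mt1, replicate 2, was also the lowest of Slc30a2, whereas in ZnSO4 + Dex replicate 2 had the highest Mt1 (27940.0) and the lowest Slc30a2 (1924). The rise of Mt1 with zinc in PBS mice, an LFC of 4.79 (SE 0.28), exceeded that of Slc30a2 on the same scale.

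Slc30a10 was most like Gm2061 (r = 0.964) and 9630028B13Rik (r = 0.943), and next to the apical glucose transporter Slc5a1 (r = 0.940), the chloride and bicarbonate exchanger Slc26a3 (r = 0.937) and Tmc5 (r = 0.936). It was least like Gm45716 and B4gat1 (r = -0.932 and -0.927). Slc5a1 is also the 1 enterocyte marker of 8 that rose with Dex in water mice (LFC 0.97) and in zinc mice (LFC 1.11). In the plot of Slc30a10 against the enterocyte markers, the 3 water + Dex libraries combined high sums (14019 to 16449 CPM) with high Slc30a10, and a ZnSO4 + PBS library with 16316 CPM had 399 normalised counts of Slc30a10. Of the 4 ileal enterocyte markers, the bile acid transporter Slc10a2 was called higher with Dex in water mice (LFC 0.92) and in zinc mice (LFC 1.16). Of the 4 stem cell markers, Ascl2 was called lower with Dex in water mice (LFC -0.69) and Lgr5 in zinc mice (LFC -0.65). Of the 5 macrophage markers, C1qa and C1qb were called higher with Dex in zinc mice (LFCs 0.43 and 0.38). Of the 3 tested mast cell markers Kit alone was called there, also higher (LFC 0.53). The part of these cell types in the values of Slc30a10 was not tested.

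Slc30a7 was most like Sec13, Ostc, Ssr1, Trabd and Tram1 (r = 0.946 to 0.960), of which Ssr1 and Tram1 sit at the translocon of the endoplasmic reticulum, and least like Tef and Bcas3 (r = -0.983 and -0.923). Slc30a5 was most like Lpgat1, Adam10, Tab2, Apaf1 and Fam83g (r = 0.924 to 0.946), and least like Slc36a4 and Ptov1 (r = -0.965 and -0.926). Between members, the highest r was that of Slc30a5 with Slc30a7 (0.793) and the lowest that of Slc30a2 with Slc30a7 (-0.757).

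**Figure D4:**
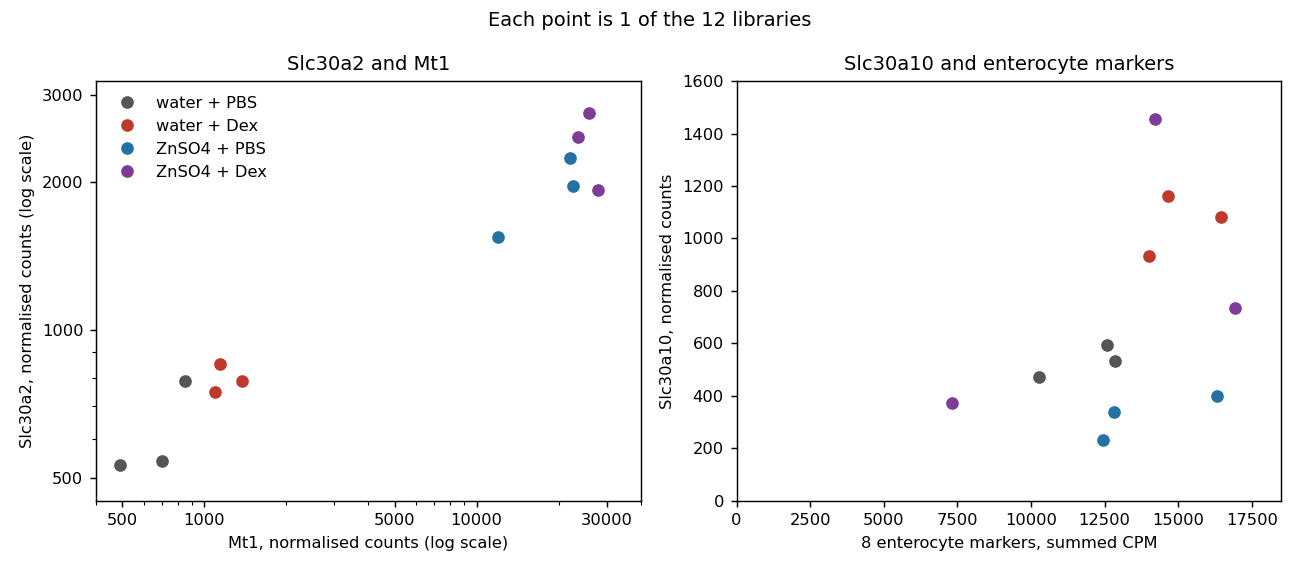
Left, normalised counts of Slc30a2 against Mt1 in the 12 libraries on log axes, coloured by group. Right, normalised counts of Slc30a10 against the summed CPM of 8 enterocyte markers in the same libraries on linear axes from 0, where the ZnSO4 + Dex library at 7306 CPM is replicate 2, with 371 normalised counts of Slc30a10.

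The other zinc genes were taken as whole lists. For the counts here and below, zinc called 4.66% of all tested genes in PBS mice and 4.37% in Dex mice. The shares for Dex were 9.93% in water mice and 13.7% in zinc mice. Of the 14 Slc39a importers 12 were tested, and with zinc 2 fell in PBS mice and 1 in Dex mice, with none higher. Slc39a4, the main intestinal importer, had LFCs of -2.95 (SE 0.15) and -3.49 (SE 0.15) and thus fell where Slc30a2 rose, and Slc39a10 fell by 0.79 (SE 0.17) in PBS mice. With Dex 1 importer, Slc39a8, rose in zinc mice (LFC 0.70, SE 0.20) and 0 were called in water mice. Averaged over injections, 4 importers fell with zinc and 0 rose, against 12.8% of all tested genes. With Dex, averaged over drinking waters, 2 importers rose and 1 fell, against 21.5% of all tested genes. Of the 4 tested genes for zinc sensing and storage (Mtf1, Mt1, Mt2 and Mt4), the 3 metallothioneins rose with zinc in PBS and in Dex mice. With Dex 0 were called in water mice and 0 in zinc mice. Averaged over drinking waters, Mt1 was called higher with Dex (LFC 0.64, SE 0.17, edgeR adjusted p = 0.0202), where 21.5% of all tested genes were called. The sensor gene Mtf1 itself was called lower in mice with both treatments (LFC -0.42, SE 0.11).

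Among 18 secreted or membrane-bound zinc enzymes, which receive their zinc in the secretory pathway, 3 fell with zinc in PBS mice, namely Car4, Smpdl3a and Smpdl3b, with LFCs of -1.57, -0.91 and -1.81. In Dex mice 5 fell with zinc, Car4, Ace, Mep1b, Smpdl3a and Smpdl3b, and 1 rose, the alkaline phosphatase Alppl2 (LFC 1.92, SE 0.41). Averaged over injections, 3 enzymes rose and 6 fell with zinc, against 12.8% of all tested genes. The median LFC of the 18 enzymes with zinc was -0.07 in PBS mice and -0.28 in Dex mice. The low library named above, ZnSO4 + Dex replicate 2, is part of the latter value.

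Of 8 genes that handle manganese, as Slc30a10 does, 3 were called with Dex in water mice, against 9.93% of all tested genes. The iron and manganese importer Slc11a2 fell by 0.58 (SE 0.12), the exporter Slc40a1 fell by 0.89 (SE 0.14) and the Golgi calcium and manganese pump Atp2c2 rose by an LFC of 1.89 (SE 0.14). In zinc mice the same 3 genes and Slc39a8 were called with Dex, against 13.7% of all tested genes. The 3 genes went in the same directions, at LFCs of -0.74, -1.01 and 1.71. With zinc, 1 of the 8 fell, Slc40a1, in PBS mice (LFC -0.66) and in Dex mice (LFC -0.78).

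Cell type markers were set beside the members. With zinc the 5 T cell markers summed to 60.9 to 68.7 CPM in ZnSO4 + PBS and 59.7 to 82.1 CPM in ZnSO4 + Dex, against 142 to 294 CPM in the water groups, and 2 of 5 fell in PBS mice and 3 of 5 in Dex mice. The 6 goblet cell markers summed to 12631 to 15092 CPM in the water groups and 14028 to 19235 CPM in the zinc groups, with Muc2 called higher in both. The 8 enteroendocrine markers summed to 313 to 376 CPM in the water groups and 401 to 542 CPM in the zinc groups, with 2 of 8 higher in each comparison. Averaged over injections, 4 of 5 T cell markers fell with zinc, and 3 of 6 goblet and 4 of 8 enteroendocrine markers rose. The share of all tested genes called there was 12.8%. Of the 4 stem cell markers, Lgr5 was called higher with zinc in PBS mice (LFC 0.74), and of the 3 tested mast cell markers Kit was called higher with zinc in Dex mice (LFC 0.66). No T cell, goblet or enteroendocrine marker was at 0 in all libraries, and the part of these cell types in the values of Slc30a2 was not tested.

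The 9 Paneth cell markers, of the cell type in which Slc30a2 fills the granules, summed to 14780 to 28442 CPM in the water groups and 12336 to 28777 CPM in the zinc groups. None of them was called with zinc in PBS or in Dex mice. Averaged over both, 1 of 9, Mmp7, was called lower with zinc (LFC -0.57, SE 0.16), against 12.8% of all tested genes. The part of Paneth cell content in the values of Slc30a2 was not tested.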

How the data were processed

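Ileum RNA-seq of 12 mice was analysed, in 4 groups of 3 by the sample labels. The authors mapped single-end reads of stranded libraries to mm10 with hisat (HISAT2 2.0.4 in the submitters' processing notes) and counted reads per gene with featureCounts, multimapping reads left out. What they deposited is a table of unnormalised counts for 54838 genes. The annotation release and strand setting are not given in the sources used here.

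Counts were tested in R 4.3.3 with edgeR 4.0.16 (filterByExpr, minimum count 10, which left 15938 genes with 99.8% of the counts, TMM, 1 model of 4 group means, glmQLFit, glmQLFTest), adjusted by Benjamini-Hochberg over all genes and called under 0.05. The 5 comparisons share groups. Symbols, positions and exon lengths came from GENCODE for GRCm38 (the assembly of mm10), and promoters from RefSeq. A prior count of 2 was used for log2 CPM. The procedure was tested on simulated data. Replicates are biological by the series' design text. No 2 libraries of a group were alike enough to be repeats (chi-square per degree of freedom 7.90 to 43.8). An exact permutation test of 3 against 3 cannot go below 0.1 and was not used.

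Named were all members, for each called member the 5 most and 2 least alike genes with a mean CPM of at least 1, and the called genes of the lists. Members and lists were chosen with earlier results of these data known. Alternatives were DESeq2 1.42.0, RLE and upper-quartile factors, other filters, a replicate block, LFC cut-offs, only the groups compared, and leaving out each library.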

Additional observations from a re-analysis of the deposited data

How the results depend on the processing

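The number of called Slc30a members depended on the setting, least so for zinc in Dex mice and the interaction. For zinc in Dex mice it was 1 under every alternative fitted to that comparison alone. The averaged zinc effect called 3 and the averaged Dex effect 2, and each covers both comparisons of its treatment. For the interaction it was 0 under every alternative run for it, which leaves out the LFC cut-off, glmTreat and the fit of only the groups compared. For zinc in PBS mice it was 1, and 2 with DESeq2 or with only the groups compared (Slc30a4 added in both), and 3 with the effect averaged over injections. For Dex in water mice it was 0, and 1 with DESeq2 (Slc30a1), 2 with only the groups compared and 2 with the effect averaged over drinking waters. For Dex in zinc mice it was 1, and 0 with a replicate block (Slc30a10 at an adjusted p of 0.0508), with glmTreat against 0.8 or with only the groups compared. For both treatments against controls it was 3, and 2 with upper-quartile factors (Slc30a7 lost at an adjusted p of 0.0742) or a replicate block, and 1 with all genes of at least 1 count, with an LFC above 0.8, with glmTreat or with only the groups compared, Slc30a2 being called in each. Leaving out 1 library gave 1 to 2, 0 to 3, 0 to 1 and 1 to 3 calls in these 4 comparisons. The highest counts of the first and second came without ZnSO4 + Dex replicate 2. The cause of these shifts was not tested. No LFC changed sign among members with an unadjusted p under 0.05. Same-numbered libraries did not deviate together (median r -0.0557 over 18 pairs, against 0.0225 over 36 other pairs), so the replicate block pairs libraries only by number. With it Slc30a2 passed for the averaged Dex effect (LFC 0.35, adjusted p = 0.0388) and Slc30a7 did not pass for both treatments against controls (0.0539). With 3 mice per group Slc30a10 had the widest intervals (SE 0.36 to 0.38), and Slc30a3 and Slc30a8 were too low to test.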

Other observations

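The sums of further marker lists, some of whose called genes are named above, varied between libraries. B cell markers summed to 25.8 to 507 CPM in water + PBS, 13.4 to 176 CPM in water + Dex, 10.3 to 382 CPM in ZnSO4 + PBS and 11.2 to 54.2 CPM in ZnSO4 + Dex. Mast cell markers, with Tpsab1 at 0 in all libraries, summed to 44.4 to 49.8 CPM in water + PBS, 55.8 to 59.4 CPM in water + Dex, 56.6 to 70.4 CPM in ZnSO4 + PBS and 80.5 to 103 CPM in ZnSO4 + Dex. Only 3 of the 5 mast cell markers were tested and Kit alone was called, so these sums do not give mast cell content. Smooth muscle markers summed to 1189 to 1593 CPM in the water groups and 1395 to 2507 CPM in the zinc groups. Ileal enterocyte markers summed to 5348 to 10307 CPM, stem cell markers to 687 to 1010 CPM and macrophage markers to 168 to 253 CPM over all 12 libraries.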
